A study of Mus musculus with 8 samples.

Results

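The VEGF ligands, their receptor Flt1, the neuropilin co-receptors and a pair of secreted regulators of angiogenesis were compared between 4T1-Sca1+ and 4T1-Sca1- tumor cells. The 10 genes, chosen by symbol and matched to the Ensembl identifiers of the count table, were the ligands Vegfa, Vegfb, Vegfc, Vegfd and Pgf, the receptors Flt1, Nrp1 and Nrp2, and the regulators Angptl4 and Thbs1. Of these, 9 were found among the 16341 genes counted, and Vegfd is not analysed here. 4T1 is a mouse mammary carcinoma cell line of BALB/c origin, and Sca1, the product of Ly6a, is a surface protein that the study used to separate a minor population of these cells from the rest. RNA-seq was performed on 4 libraries of cells selected as Sca1+ and 4 libraries of cells selected as Sca1-. The labels give no further genotype or treatment for either population, and both were gated as CD45-, the surface phenotype of cells that are not leukocytes. They were separated with magnetic columns after staining with a phycoerythrin-coupled Sca1 antibody, a method that enriches a population without guaranteeing its purity. The source label gives the parental 4T1 line as the starting material while the protocol speaks of stained tumor, and the study's text describes the profiled cells as sorted from the parental line. All libraries come from 1 cell line, and the labels do not say whether replicates were separate sorts, so p-values measure only the spread between these libraries, which may be technical.

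The VEGF family consists of secreted dimeric growth factors that act mainly on endothelial cells through the receptor tyrosine kinases Flt1, Kdr and Flt4. Vegfa drives vessel sprouting through Kdr, whereas Flt1 binds Vegfa, Vegfb and Pgf and can act as a decoy. Vegfc and Vegfd act mainly on lymphatic endothelium through Flt4. Neuropilins have short cytoplasmic tails, bind class 3 semaphorins as well as VEGF isoforms, and are found on many carcinoma cells. In tumors, Vegfa is a classical target of hypoxia-inducible factors, and its transcription from a promoter rich in GC boxes is well studied.

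The 250 bases upstream of the start sites of Vegfa and Vegfb are shown because these were the ligand genes with higher counts in 4T1-Sca1+ cells. Sequences are from RefSeq (GRCm38.p6), written 5′ to 3′ on the strand of the gene, with GC boxes (GGGCGG on either strand) in capitals. The windows are chr17:46032378-46032627 for Vegfa and chr19:6987652-6987901 for Vegfb, both on the minus strand, and neither overlapped an annotated exon.
Vegfa: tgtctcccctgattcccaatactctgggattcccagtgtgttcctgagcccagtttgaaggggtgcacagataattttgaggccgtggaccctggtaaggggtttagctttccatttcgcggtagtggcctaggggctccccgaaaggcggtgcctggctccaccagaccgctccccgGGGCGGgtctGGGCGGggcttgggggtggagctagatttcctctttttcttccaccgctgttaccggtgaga
Vegfb: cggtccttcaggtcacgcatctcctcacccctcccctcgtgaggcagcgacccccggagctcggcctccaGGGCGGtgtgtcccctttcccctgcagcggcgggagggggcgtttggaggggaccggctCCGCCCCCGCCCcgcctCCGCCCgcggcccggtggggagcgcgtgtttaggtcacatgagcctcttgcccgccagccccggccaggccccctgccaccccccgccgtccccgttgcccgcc
The Vegfa window held 2 GC boxes and the Vegfb window held 4, and 32.7% of 32851 RefSeq promoter windows of this length held at least 1. A hypoxia response core, ACGTG or GCGTG on either strand, occurred 2 times in the Vegfb window and 0 times in the Vegfa window, against 38.6% of windows with at least 1. A second Vegfa entry, chr17:46025164-46025413, which overlaps annotated exons and is therefore not printed, held 2 hypoxia cores and 1 GC box. Of the 10 genes, 8 had a promoter entry. In the Flt1 window, chr5:147726012-147726261, 1 cyclic AMP response element (TGACGTCA on either strand, held by 1.55% of windows), 3 GC boxes and 1 hypoxia core were present. This window is described for the first of these matches, found in a search of all 10 promoter windows of these genes. No other of these windows held that element, and none held an AP-1 site (TGACTCA on either strand, held by 4.46% of all windows). These matches describe letters in a window and say nothing of binding, and bases outside these windows were not searched.

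Library totals ran from 15041995 to 16968215 counts in 4T1-Sca1+ and from 13561804 to 16142836 in 4T1-Sca1- libraries. Ly6a itself was counted 709 times over the 4T1-Sca1+ libraries and 7 times over the 4T1-Sca1- libraries, in the direction of the sort. The 4T1-Sca1+ replicate 3 stood apart, with a chi-square per degree of freedom of 7.06 to 10.2 against its 3 fellow libraries. The other pairs of that group gave 2.20 to 4.02, and the 4T1-Sca1- pairs gave 1.90 to 5.60. Results that rest on 4T1-Sca1+ replicate 3 are given with and without it. Expression is given as normalized count, the count divided by a size factor per library, with SD over n = 4 libraries. Log2 fold changes (4T1-Sca1+ over 4T1-Sca1-), standard errors (SE) and adjusted p come from edgeR's quasi-likelihood test with Benjamini-Hochberg adjustment over 11717 tested genes, and a gene was called at an adjusted p under 0.05. Because these are bulk libraries, fewer cells that express a gene and less RNA per cell cannot be told apart.

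All 9 counted genes passed the filter on low counts. Vegfa, Vegfb and Flt1 were higher in 4T1-Sca1+ cells, Pgf, Angptl4 and Thbs1 were lower, and Vegfc, Nrp1 and Nrp2 were not called. These 6 calls among 9 genes stand beside a background in which 61.5% of all tested genes were called, 31.3% higher and 30.2% lower. The median log2 fold change of the 9 genes was -0.10, beside 0.01 over all tested genes. The split of all calls depended on scaling, since 50.9% of calls were higher in 4T1-Sca1+ in the main comparison and 39.5% with offsets that remove each library's trend with transcript GC content. Scaling by library totals alone raised this share to 58.0%. A filter on size left fewer genes of the background, with 6.1% of tested genes called with a log2 fold change of size 1 or more, among them Pgf, and 20.5% with one of size 0.5 or more, among them also Vegfa and Angptl4.

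**Figure D1:**
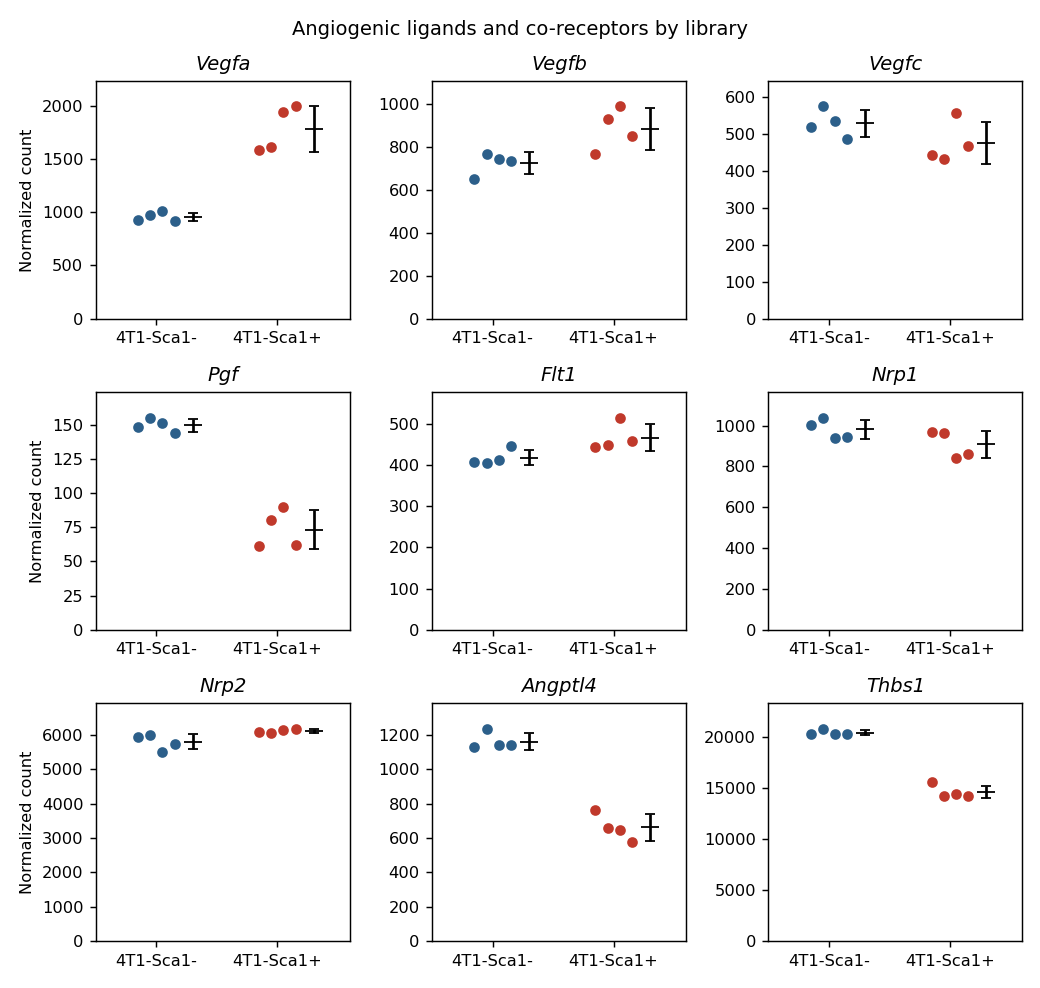
Normalized counts of the 9 genes in each library, with 4T1-Sca1- in blue and 4T1-Sca1+ in red. Points are libraries, in the order of their replicate numbers, the long tick is the group mean, the bar is 1 SD (n = 4), and every vertical axis starts at 0. The 4T1-Sca1+ libraries lie above the 4T1-Sca1- libraries for Vegfa, at 1579 to 1992 against 921 to 1006, and below them for Pgf, Angptl4 and Thbs1.

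Among the ligands, Vegfa showed the clearest rise. This gene (ENSMUSG00000023951, chr17:46016993-46032369, minus strand, GRCm38) encodes the main endothelial mitogen of the family, and 13 annotated transcripts share its counts. Its normalized counts in 4T1-Sca1+ replicates 1 to 4 were 1579, 1611, 1938 and 1992, and those in 4T1-Sca1- replicates 1 to 4 were 926, 970, 1006 and 921. Every 4T1-Sca1+ library was above every 4T1-Sca1- library, as was the case in 1 direction or the other for 54.7% of tested genes. The means were 1780 ± 215 and 956 ± 40.1, a log2 fold change of 0.91 ± 0.07 (SE, 95% interval 0.76 to 1.06, adjusted p = 6.11e-09, edgeR). This change stood at percentile 93.7 of the changes of all tested genes, and was 0.87 without 4T1-Sca1+ replicate 3. The spread among the 4T1-Sca1+ libraries was the larger one, with replicates 3 and 4 above replicates 1 and 2.

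Vegfb, a ligand of Flt1 linked with lipid handling and survival of vessels, moved less. Its direction and call held under 17 of 18 alternatives and were lost with GC-corrected offsets. The gene (ENSMUSG00000024962, chr19:6982473-6987651, minus strand) had normalized counts of 766, 930, 986 and 847 in 4T1-Sca1+ and of 648, 767, 744 and 732 in 4T1-Sca1- libraries. The groups overlapped by 4T1-Sca1+ replicate 1, which lay at the top of the 4T1-Sca1- range. The log2 fold change was 0.30 ± 0.07 (SE, 95% interval 0.15 to 0.45, adjusted p = 0.00175, edgeR). With GC-corrected offsets it was -0.11 (adjusted p = 0.127, edgeR), so the call ended and the sign turned. The GC content of its longest transcript was 62.6%, against a median of 49.8% over tested genes and 50.9% for Vegfa.

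Vegfc, the main lymphangiogenic ligand (ENSMUSG00000031520, chr8:54077606-54187096, plus strand), was not called. Its normalized counts were 442, 432, 557 and 466 in 4T1-Sca1+ and 520, 574, 534 and 486 in 4T1-Sca1- libraries. Of the 4T1-Sca1+ libraries 3 lay below the whole 4T1-Sca1- range and replicate 3 lay within it. The log2 fold change was -0.15 ± 0.08 (SE, 95% interval -0.31 to 0.02, adjusted p = 0.113, edgeR). Without 4T1-Sca1+ replicate 3 it was -0.23 with an adjusted p of 0.00349 (edgeR), so this library decided the call.

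Pgf, placental growth factor, which binds Flt1 but not Kdr, had the largest change of the 9 genes. The gene (ENSMUSG00000004791, chr12:85166635-85177790, minus strand) had normalized counts of 61.2, 79.9, 89.8 and 62.1 in 4T1-Sca1+ and of 148, 155, 151 and 144 in 4T1-Sca1- libraries. Every 4T1-Sca1+ library was below every 4T1-Sca1- library. The means were 73.3 ± 14.0 and 149.6 ± 4.78, a log2 fold change of -1.03 ± 0.12 (SE, 95% interval -1.28 to -0.77, adjusted p = 1.07e-06, edgeR). It stood at percentile 0.841 of all tested genes. Vegfa and Pgf, which share the receptor Flt1, thus moved in opposite directions, and both kept their call under each of the 18 alternatives tried.

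**Figure D2:**
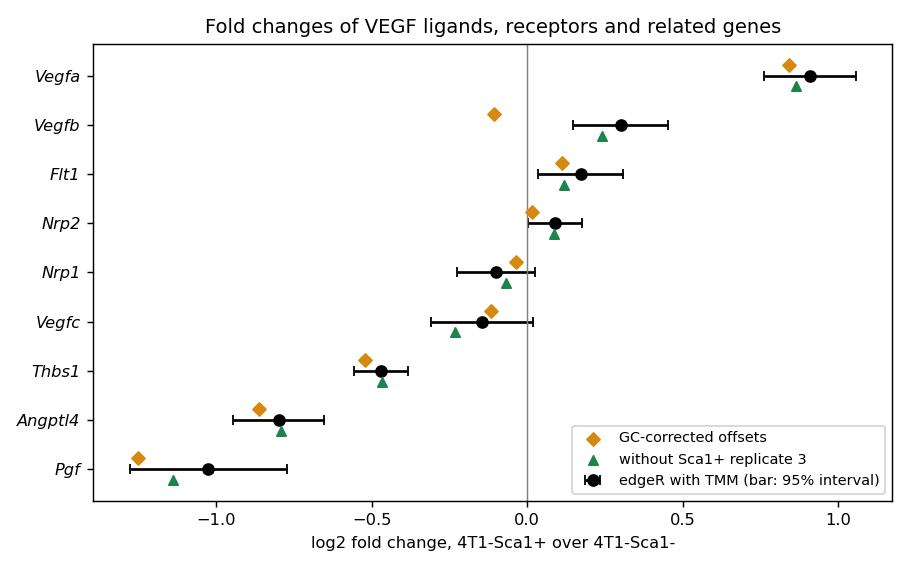
Log2 fold changes of the 9 genes, 4T1-Sca1+ over 4T1-Sca1-, on the horizontal axis. Black points are the edgeR estimates with bars of 95% intervals, diamonds the estimates with GC-corrected offsets and triangles those without 4T1-Sca1+ replicate 3. The diamond of Vegfb, at -0.11, lies on the other side of 0 from its point at 0.30, and the 3 estimates of Vegfa lie between 0.84 and 0.91.

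The ligands were also compared per transcript length, as TPM (each gene's share of length-corrected counts, scaled to a fixed sum per library), computed from the counts and the union of GENCODE M21 exons. On this scale Vegfb was the most abundant ligand in both groups, at 140 ± 14.9 TPM in 4T1-Sca1+ and 110 ± 6.77 TPM in 4T1-Sca1- cells. Vegfa followed in 4T1-Sca1+ cells, at 105 ± 12.5 TPM. In 4T1-Sca1- cells its level, 54.4 ± 2.10 TPM, and that of Vegfc, 52.7 ± 3.16 TPM, lay within 1 SD of each other with this length. In 4T1-Sca1+ cells Vegfc was at 49.2 ± 5.50 TPM, well below Vegfa. Pgf was the least abundant ligand, at 6.40 ± 1.19 and 12.6 ± 0.31 TPM.

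The summed TPM of the 4 ligands was 301 ± 27.8 in 4T1-Sca1+ and 229.5 ± 9.53 in 4T1-Sca1- libraries, and the groups did not overlap. Part of this difference is that of Vegfb, whose fold change turned to -0.11 with GC-corrected offsets while that of Vegfa stayed at 0.84, and neither the sum nor the shares were recomputed with that correction. Vegfa made up 35.1% ± 2.60 of ligand TPM in 4T1-Sca1+ and 23.7% ± 0.77 in 4T1-Sca1- libraries, with ranges of 32.4% to 38.6% and 22.8% to 24.5%. The share of Vegfc was 16.4% ± 1.00 against 22.9% ± 1.09. The share of Pgf was 2.12% ± 0.28 against 5.48% ± 0.19. That of Vegfb was 46.4% against 47.8%. These shares were not tested, since they restate the counts that the test above used.

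**Figure D3:**
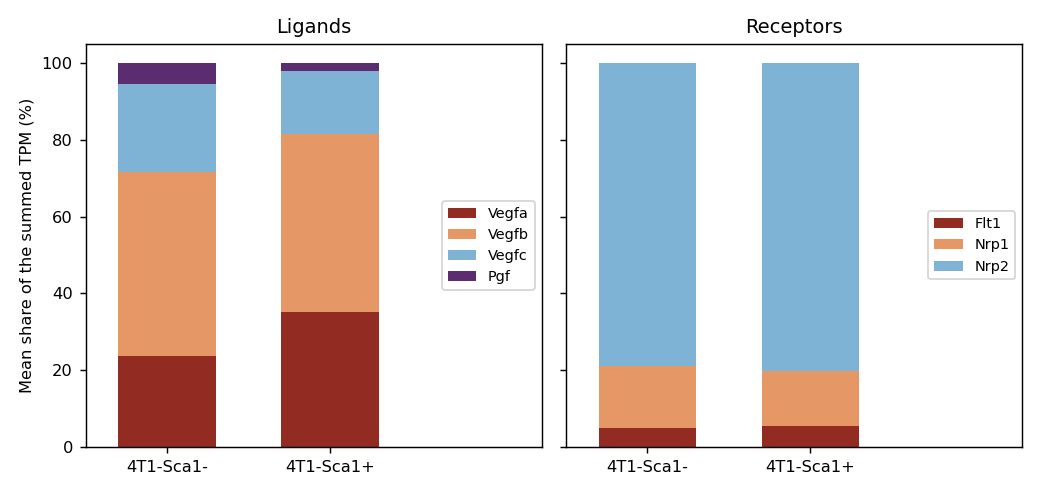
Mean share of summed TPM, in percent on the vertical axis from 0 to 100, of the 4 ligands on the left and of the 3 receptors on the right, in 4T1-Sca1- and 4T1-Sca1+ cells (n = 4 each). The Vegfa segment takes 23.7% in 4T1-Sca1- and 35.1% in 4T1-Sca1+ cells, and the Nrp2 segment takes 78.9% and 80.2%.

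Ratios between ligands within a library do not depend on the size factor. The ratio of Vegfa to Vegfc in TPM was 1.04 in 4T1-Sca1- libraries (0.966 to 1.08) and 2.15 in 4T1-Sca1+ libraries (1.99 to 2.44). The level of these ratios depends on the length used, since with the longest transcript in place of the exon union Vegfa was at 50.8 ± 1.96 TPM and Vegfc at 39.6 ± 2.40 TPM in 4T1-Sca1- libraries. The ratio of Vegfa to Vegfb was 0.497 (0.472 to 0.535) and 0.759 (0.649 to 0.881). The ratio of Vegfa to Pgf was 4.33 (4.24 to 4.50) and 16.9 (13.7 to 21.7), and that of Vegfb to Pgf 8.74 (7.92 to 9.20) and 22.1 (19.9 to 24.7). In all 4 ratios the lowest 4T1-Sca1+ library was above the highest 4T1-Sca1- library.

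Of the 3 receptors, Flt1 was called and the neuropilins were not. Flt1, VEGF receptor 1 (ENSMUSG00000029648, chr5:147561604-147726011, minus strand), is best known from endothelial cells and macrophages and was counted here in every library. Its normalized counts were 444, 448, 515 and 457 in 4T1-Sca1+ and 408, 406, 411 and 445 in 4T1-Sca1- libraries. The groups overlapped narrowly, where 4T1-Sca1- replicate 4 exceeded 4T1-Sca1+ replicate 1. The log2 fold change was 0.17 ± 0.07 (SE, 95% interval 0.03 to 0.31, adjusted p = 0.0306, edgeR). This call ended under 7 of 18 alternatives, and was 0.12 without 4T1-Sca1+ replicate 3 (adjusted p = 0.111, edgeR). Leaving out 4T1-Sca1- replicate 1, 2 or 3 also ended it, at 0.15, 0.15 and 0.16.

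Nrp1, the neuropilin best known for Vegfa and semaphorin 3A (ENSMUSG00000025810, chr8:128358604-128503363, plus strand), was not called. Its normalized counts were 971, 961, 842 and 860 in 4T1-Sca1+ and 1002, 1039, 941 and 945 in 4T1-Sca1- libraries. The groups overlapped, with a log2 fold change of -0.10 ± 0.06 (SE, 95% interval -0.22 to 0.03, adjusted p = 0.155, edgeR).

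Nrp2, the neuropilin best known for Vegfc and class 3 semaphorins (ENSMUSG00000025969, chr1:62703285-62818695, plus strand), was the most abundant receptor. Its normalized counts were 6097, 6075, 6137 and 6188 in 4T1-Sca1+ and 5942, 6018, 5516 and 5753 in 4T1-Sca1- libraries. The groups did not overlap, but the log2 fold change was small, 0.09 ± 0.04 (SE, 95% interval 0.00 to 0.18), and was not called (adjusted p = 0.0699, edgeR). It passed the threshold at 0.13 with library totals alone (adjusted p = 0.00857, edgeR), at 0.12 with upper-quartile scaling and at 0.10 with a filter of at least 10 counts in every library. The intervals of both neuropilins leave room for changes of at most 0.22 in size on the log2 scale.

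Per length, Nrp2 stood at 131 ± 1.33 TPM in 4T1-Sca1+ and 119.7 ± 4.42 TPM in 4T1-Sca1- cells. With exon unions its 4T1-Sca1+ level lay within the SD of Vegfb. Nrp1 stood at 23.6 ± 1.84 and 24.5 ± 1.06 TPM, and Flt1 at 8.76 ± 0.56 and 7.54 ± 0.37 TPM. Nrp2 thus made up 80.2% ± 0.77 and 78.9% ± 0.19 of the summed TPM of the 3 receptors. The ratio of Nrp2 to Nrp1 was 5.59 (5.19 to 6.02) in 4T1-Sca1+ and 4.89 (4.79 to 5.03) in 4T1-Sca1- libraries. It depended on the length used, since with the longest transcript in place of the exon union the mean over all 8 libraries was 166 TPM for Nrp2, up from 126 TPM, and 48.6 TPM for Nrp1. The ratio of Flt1 to Nrp1, 0.374 (0.332 to 0.443) and 0.309 (0.283 to 0.341), overlapped between the groups. The likeness of Nrp2 to Vegfb also depended on the length. With the longest transcript Nrp2 was at 174 ± 1.70 and Vegfb at 131.8 ± 14.1 TPM in 4T1-Sca1+ cells. The receptor shares were not recomputed with that length.

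Both secreted regulators fell in 4T1-Sca1+ cells. Angptl4, an inhibitor of lipoprotein lipase that also acts on vessels and is induced by PPAR factors and by hypoxia (ENSMUSG00000002289, chr17:33773750-33781830, minus strand), had normalized counts of 765, 660, 648 and 578 in 4T1-Sca1+ and of 1131, 1237, 1140 and 1143 in 4T1-Sca1- libraries. The groups did not overlap. The log2 fold change was -0.80 ± 0.07 (SE, 95% interval -0.94 to -0.65, adjusted p = 2.74e-08, edgeR), at percentile 1.78 of all tested genes. On the TPM scale Angptl4 was above Vegfa in 4T1-Sca1- cells, at 80.1 against 54.4, and below it in 4T1-Sca1+ cells, at 47.5 ± 5.50 against 105 ± 12.5. In 4T1-Sca1+ cells it lay within 1 SD of Vegfc.

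Thbs1, thrombospondin 1, a matrix glycoprotein that inhibits angiogenesis and binds Cd36 and Cd47 (ENSMUSG00000040152, chr2:118111876-118127133, plus strand), was the most abundant of the 9 genes. Its normalized counts were 15568, 14277, 14459 and 14262 in 4T1-Sca1+ and 20318, 20845, 20322 and 20368 in 4T1-Sca1- libraries. The groups did not overlap and the spread within each was small. The log2 fold change was -0.47 ± 0.04 (SE, 95% interval -0.56 to -0.38, adjusted p = 3.09e-08, edgeR), at percentile 7.71 of all tested genes. Its level was 612 ± 25.5 TPM in 4T1-Sca1+ and 822 ± 3.84 TPM in 4T1-Sca1- cells. The ratio of Vegfa to Thbs1 in TPM was 0.173 (0.144 to 0.198) against 0.0662 (0.0641 to 0.0702), and the groups did not overlap. The ratio of Thbs1 to Angptl4 was 13.0 (11.9 to 14.4) against 10.3 (9.82 to 10.5), again with no overlap.

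Other genes of these pathways were described from lists with 92 members, of which 83 were counted and 62 tested. Of the tested genes, 25 were higher, 21 were lower and 16 were not called, with a median log2 fold change of 0.01, the same to 2 decimals as over all tested genes. The counts of each list below stand beside the same background, 31.3% of all tested genes higher and 30.2% lower, and no list was tested against it. Kdr and Flt4, the main signaling receptors of Vegfa and Vegfc, are not analysed here. Among 10 tested semaphorins, plexins and adaptors listed as neuropilin ligands and partners, 5 were higher and 3 lower (median 0.25, or 0.11 with GC-corrected offsets). Plxnd1, a plexin that guides vessel patterning, was at 625 ± 74.3 in 4T1-Sca1+ and 274 ± 7.53 in 4T1-Sca1- libraries. Its log2 fold change was 1.20 ± 0.08 (SE), or 0.85 with GC-corrected offsets. Sema3c, a neuropilin ligand, was at 149 ± 21.3 and 341 ± 17.4 (-1.17 ± 0.09, SE).

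Of 7 tested genes that process or release VEGF, 2 were higher and 3 lower (median -0.11). With GC-corrected offsets 2 were higher and 5 lower (median -0.24). Hpse, the heparanase that frees matrix-bound growth factors, had a log2 fold change of 0.73 ± 0.12 (SE). Adamts1, a matrix protease that binds Vegfa and cleaves Thbs1, fell from 3152 ± 84.2 in 4T1-Sca1- to 923 ± 68.3 in 4T1-Sca1+ libraries (-1.76 ± 0.05, SE). In the angiopoietin system 3 of 5 tested genes were higher and 1 lower (median 0.54). Angpt1, the Tek ligand that stabilizes vessels, was at 149 ± 10.4 and 37.2 ± 4.49 (2.00 ± 0.12, SE), and Tie1, an orphan receptor of the same system, was lower (-0.60 ± 0.19, SE).

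Among the relatives and receptors of Thbs1, 2 were tested and both were higher. Thbs3 had a log2 fold change of 0.55 ± 0.08 (SE), or 0.37 with GC-corrected offsets. Cd47 had one of 0.13 ± 0.05 (SE), a call lost with DESeq2 size factors. Among 9 tested angiogenic factors of other families, 2 were higher and 6 lower (median -0.53, or -0.74 with GC-corrected offsets). Among 6 tested genes listed as inhibitors, 4 were higher and 2 lower (median 0.49, or 0.25 with GC-corrected offsets). Edn1, the vasoconstrictor endothelin, was at 102 ± 5.93 and 417 ± 27.3 (-2.01 ± 0.08, SE). Fgf1, an acidic fibroblast growth factor, had a log2 fold change of 0.55 ± 0.22 (SE), a call lost without 4T1-Sca1+ replicate 3. Vash2, a vasohibin listed with the inhibitors although it is known to promote angiogenesis, was higher by 1.11 ± 0.12 (SE), and Cxcl10, an angiostatic chemokine, was at 36.2 ± 3.22 and 150.2 ± 12.1 (-2.04 ± 0.12, SE).

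**Figure D4:**
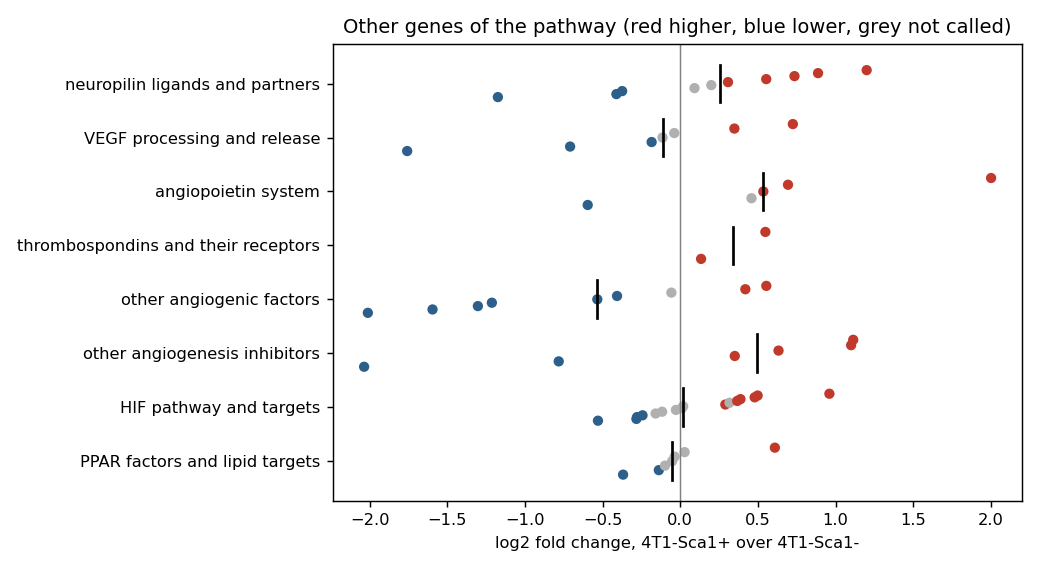
Log2 fold changes, 4T1-Sca1+ over 4T1-Sca1-, of the 62 tested genes of the other pathway lists on the horizontal axis, 1 line per list. Points are genes, red where called higher, blue where called lower and grey where not called, and the vertical bar is the list's median. Angpt1 lies farthest right at 2.00, Cxcl10 farthest left at -2.04, and the median of the angiogenic factors of other families lies at -0.53.

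Hypoxia-inducible factors and PPAR factors are known regulators of Vegfa and Angptl4, and the lists on them hold regulators together with other targets. Of 16 tested genes of the hypoxia-inducible factor pathway, 6 were higher, 4 lower and 6 not called, with a median of 0.01, or -0.04 with GC-corrected offsets. Hif1a, the oxygen-regulated subunit, was at 3672 ± 240.9 and 2831 ± 180.2 (0.39 ± 0.06, SE) and is named after its values were seen. Egln3, an oxygen-sensing hydroxylase and hypoxia target, was at 2678 ± 51.6 and 1388 ± 56.5 (0.96 ± 0.05, SE), whereas Ldha, the lactate dehydrogenase and a hypoxia target too, was at 24021 ± 1064 and 34999 ± 850.1 (-0.53 ± 0.04, SE). Of 7 tested PPAR factors and lipid targets, 1 was higher and 2 lower (median -0.05), and 1 was higher and 6 lower with GC-corrected offsets. Rxra, the partner of PPAR factors, had a log2 fold change of 0.61 ± 0.05 (SE) and Hadha, of fatty acid oxidation, one of -0.37 ± 0.05 (SE). Of the PPAR factors themselves, Ppard was not called. Pparg, at 31 counts over the 4T1-Sca1+ and 0 over the 4T1-Sca1- libraries, and Ppara, at 3 against 0, were not tested.

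Because Flt1, Angpt1 and Tie1 are also genes of vessels and their support cells, markers of other cell types were counted. Of 9 counted endothelial markers, 6 had at most 10 counts in every library, and Tek, Emcn and Erg were at 0 in all 4T1-Sca1+ libraries, with 1 count each over the 4T1-Sca1- libraries. Pecam1 had 21 counts over the 4T1-Sca1+ and 4 over the 4T1-Sca1- libraries, and the groups did not overlap. Cdh5, at 3 against 7 counts, Esam, at 24 against 32, and Vwf, at 5 against 3, overlapped between the groups. Of 2 tested endothelial markers, 0 were higher, 1 was lower (Tie1) and 1 was not called (Egfl7). The summed normalized count of the endothelial markers was 146.9 to 190.5 in 4T1-Sca1+ and 144.7 to 189.5 in 4T1-Sca1- libraries, most of it from Egfl7. Fibroblast and pericyte markers summed to 641 to 675 against 401 to 470.2, with most of the sum from Pdgfra. Of these, 4 of 9 had at most 10 counts in every library. Rgs5 had 12 counts over the 4T1-Sca1+ and 0 over the 4T1-Sca1- libraries. Dcn, at 49 against 4 counts, and Pdgfrb, at 27 against 1, were also higher with no overlap, while Fap was at 4 against 11. Of 3 tested markers of this list, 2 were higher and 1 was not called. Leukocyte markers summed to 199 to 228 against 83.1 to 120.1, with 6 of 9 at most at 10 counts in every library and Lyz2 at 0 in all 4T1-Sca1+ libraries and at 1 count over the 4T1-Sca1- libraries. All 3 tested leukocyte markers were higher in 4T1-Sca1+, S100a8 by 2.38 ± 0.27, Csf1r by 1.18 ± 0.20 and Cd74 by 0.94 ± 0.13 (log2, SE). Ptprc, the gene of CD45, had 10 counts over the 4T1-Sca1+ and 2 over the 4T1-Sca1- libraries, with no overlap, while Itgam had 10 against 11. Mammary epithelial markers summed to 57303 to 62729 against 59337 to 63777. Krt5 was at 0 in all 4T1-Sca1- libraries and at 3 counts over the 4T1-Sca1+ libraries. The part of the higher fibroblast and leukocyte marker sums in the differences of Vegfa, Pgf, Angptl4 and Thbs1 was not tested.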

How the data were processed

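RNA-seq was performed by the study on 4 4T1-Sca1+ and 4 4T1-Sca1- libraries prepared with TruSeq chemistry and sequenced on a NextSeq instrument. The deposited count table holds raw counts per Ensembl gene. A second deposited table holds a signal that the authors made by dividing the counts by 1 size factor per library. The submitters' processing notes name cutadapt 1.16, STAR 2.5.3a and the build GRCm38. The counting tool, annotation and strand setting are not given in the sources used here, so reads of overlapping genes could be shared, although none of the 9 genes overlapped another counted gene.

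Counts were fitted in R 4.3.3 with edgeR 4.0.16 (TMM, filterByExpr, quasi-likelihood test, Benjamini-Hochberg adjustment over 11717 tested genes). The library totals of 13561804 to 16968215 counts and a common biological coefficient of variation of 0.0541 set the precision. TPM used GENCODE M21 exon unions over 16202 matched genes. Alternatives were other scalings, GC-corrected offsets (loess span 0.3), other filters, DESeq2 1.42.0, limma 3.58.1, a replicate block and each library left out. Named genes were all 10 members, the called pathway genes with the highest and lowest log2 fold change in each list at a mean normalized count of at least 20, Kdr, Flt4, Ly6a and markers at 0 in all libraries of a group. Hif1a, the PPAR factors and the other markers named lie outside this rule and were named after their values were seen. The genes most like Vegfa across libraries are not reported here. Pathway lists covered neuropilin partners, VEGF processing, angiopoietins, thrombospondins, angiogenic factors, inhibitors, hypoxia and PPAR genes. The genes and lists were chosen with earlier results of these data known. Code was tested on simulated counts. No replicate pair was alike within sampling noise.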

Additional observations from a re-analysis of the deposited data

Results flagged for a closer look

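Dixon's criterion divides a library's gap to its nearest neighbor by the range of its group. Over the 9 genes, 18 groups of 4 libraries were tested, where chance gives about 1 group in 20. In 4 of the groups a library exceeded the 95% critical value of this ratio. Thbs1 gave 2 of these, with 15568 normalized counts in 4T1-Sca1+ replicate 1 (the others 14262 to 14459) and 20845 in 4T1-Sca1- replicate 2 (the others 20318 to 20368). The same 4T1-Sca1- library was high for Angptl4, at 1237 normalized counts against 1131 to 1143. For Flt1, 4T1-Sca1- replicate 4 was at 445 normalized counts against 406 to 411, and this library is the one that overlaps the 4T1-Sca1+ range.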

How the results depend on the processing

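Under 18 alternatives each, Vegfa (0.84 to 0.96), Pgf (-1.25 to -0.95), Angptl4 (-0.88 to -0.74), Thbs1 (-0.52 to -0.43) and Nrp1 (-0.14 to -0.03) kept their direction and their side of the threshold. With GC-corrected offsets Vegfb turned to -0.11, Flt1 was 0.11 and not called, and 1 of the 9 genes was higher in place of 3. Flt1 was also not called without a low-count filter (0.16) and with DESeq2 (0.16). Nrp2 was called with library totals alone (0.13), upper-quartile scaling (0.12) and at least 10 counts in every library (0.10). Leaving out 1 library gave -0.23 to -0.11 for Vegfc, called only without 4T1-Sca1+ replicate 3, 0.12 to 0.20 for Flt1, 0.24 to 0.36 for Vegfb and 0.06 to 0.10 for Nrp2. Beyond the construction of each alternative, the cause was not tested. With a log2 fold change of size 1 or more required, 612 genes were higher and 103 lower, of the 9 genes 0 were higher and 1 lower, and of the other pathway genes 4 were higher and 7 lower. With the replicate number as a block, 3605 genes were higher and 3452 lower, and Vegfa was at 0.90, Flt1 at 0.17 and Nrp2 at 0.09, with no call changed among the 9 genes. The labels do not say whether same-numbered libraries come from the same sort. Such libraries correlated in their deviations at -0.15 to 0.10. This cannot decide the question, since libraries of a shared sort need not deviate alike. Depth limits Pgf most among the 9 genes, at 61.2 to 155 normalized counts per library.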
